A study of Homo sapiens with 32 samples.

Results

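The MHC class I and peptide loading genes described here were 9 of the 25559 gene symbols in the count tables: HLA-B, HLA-C, HLA-E, HLA-F, B2M, TAP1, TAP2, TAPBP and NLRC5. They were chosen by symbol for their place in the class I pathway. All 9 were found, and all 9 passed the low-count filter that kept 17801 symbols for testing. Messenger RNA was measured in bulk in 4 established human T-cell lines cultured for 96 h. HH and H9 derive from cutaneous T-cell lymphoma, PF382 from T-cell acute lymphoblastic leukemia and TLOm1 from adult T-cell leukemia. In every line 8 cultures were compared: untreated cells, romidepsin alone, azacitidine alone at 3 doses, and both drugs at those 3 doses. Romidepsin inhibits histone deacetylases and was given once at the start, at 1.25 nM in PF382 and 1 nM in TLOm1 and H9. The HH titles give 1 nM for romidepsin alone and 1.25 nM for the combinations. Azacitidine, a cytidine analogue that depletes DNA methyltransferases, was added every 24 h. HH and H9 received 50, 125 or 250 nM of it, whereas PF382 and TLOm1 received 125, 250 or 500 nM. Combination titles carry the azacitidine dose without a unit, and it was read as nM.

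MHC class I molecules carry peptides from inside the cell to its surface, where CD8 T cells and natural killer cells inspect them. A polymorphic heavy chain, encoded by an HLA gene, pairs with beta-2 microglobulin, encoded by B2M. The transporter of TAP1 and TAP2 moves peptides into the endoplasmic reticulum, and tapasin, encoded by TAPBP, holds empty class I molecules beside it while peptides are chosen. NLRC5 is the transactivator that acts, through factors bound to the promoter, on heavy chain genes, B2M and TAP1. Transcription of the pathway is known to respond to interferons and NF-kB, and loss of class I expression is a familiar route by which tumour cells avoid T cells.

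Each line gave 1 library for a condition. In comparisons over the 4 lines, lines therefore stood as the replicates (n = 4). Effects within a line had no replicate cultures, and libraries of that line under different conditions took their place. In both cases p-values rest on the spread of all libraries in a fit rather than on repeated cultures. Libraries held 16175077 to 32496676 counts, and 3 counts, the limit that a count of 0 allows, came to 0.123 CPM in untreated PF382. CPM, the unit of all levels here, is the count of a gene scaled to the size of its library after TMM normalization, which corrects for library composition. Of 16 T-cell markers 13 were in the tables, and 6 had at least 10 counts in every library. PTPRC, CD3E, CD247, ZAP70 and LAT were at 17.7 CPM or more in all 32 libraries. The T-cell identity was incomplete by other markers: LCK was at most 1.57 CPM in TLOm1 and 1.07 CPM in HH, CD3D at most 0.766 CPM in TLOm1, and CD2 at most 0.662 CPM in H9. Summed T-cell markers spanned 1093 to 2796 CPM in untreated cells and 1199 to 2767 CPM in the combination with 250 nM azacitidine, where 1 marker was called higher and 2 lower. In the same comparison 2 of 7 B-cell markers, 1 of 4 tested myeloid markers, 2 of 3 tested natural killer cell markers and 3 of 7 tested epithelial and fibroblast markers were called higher. Their summed levels went from 2.001 to 430.0 CPM over untreated lines to 19.2 to 408 CPM for B-cell markers, and from 1.31 to 142 CPM to 7.37 to 259 CPM for epithelial and fibroblast markers. Within PF382 the epithelial and fibroblast sum went from 7.23 CPM in untreated cells to 125 and 186 CPM with romidepsin and 250 or 500 nM azacitidine, and the natural killer cell sum from 4.90 CPM to 24.5 and 50.4 CPM. Over all 32 libraries the myeloid sum was at most 12.5 CPM, in TLOm1, and the natural killer cell sum at most 50.4 CPM, in PF382. LYZ, CD163, KLRC1 and FCGR3A were under 10 counts in all libraries. The part of these markers in the results below was not tested. In bulk RNA, fewer cells expressing a gene and less RNA per cell cannot be told apart.

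Promoters are shown first, for 4 of the 6 members that were called with both drugs at 250 nM azacitidine. RefSeq promoter windows of 300 bases (250 before the start and 50 after, GRCh38.p14) matched 7 of the 9 genes, with 8 windows because TAP1 has 2. The 250 bases before the start follow for HLA-B (chr6:31357180-31357429, minus strand), HLA-C (chr6:31272093-31272342, minus strand), B2M (chr15:44711267-44711516, plus strand) and TAPBP (chr6:33314079-33314328, minus strand). They are written 5′ to 3′ on the strand of the gene. Capitals mark matches, on either strand, to CCAAT, to the cyclic AMP response element motif TGACG, to the NF-kB consensus, and to an interferon-stimulated response element core of GAAA, any 2 bases and GAAA.
HLA-B: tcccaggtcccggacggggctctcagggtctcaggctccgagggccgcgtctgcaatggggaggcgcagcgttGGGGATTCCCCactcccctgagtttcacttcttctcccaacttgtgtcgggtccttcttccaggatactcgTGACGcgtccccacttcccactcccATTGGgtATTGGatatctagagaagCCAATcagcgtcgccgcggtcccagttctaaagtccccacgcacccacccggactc
HLA-C: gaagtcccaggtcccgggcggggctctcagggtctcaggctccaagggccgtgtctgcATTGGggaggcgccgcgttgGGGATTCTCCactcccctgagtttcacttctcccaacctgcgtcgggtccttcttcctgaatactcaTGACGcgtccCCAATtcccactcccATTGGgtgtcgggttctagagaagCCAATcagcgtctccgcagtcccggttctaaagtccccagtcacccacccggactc
B2M: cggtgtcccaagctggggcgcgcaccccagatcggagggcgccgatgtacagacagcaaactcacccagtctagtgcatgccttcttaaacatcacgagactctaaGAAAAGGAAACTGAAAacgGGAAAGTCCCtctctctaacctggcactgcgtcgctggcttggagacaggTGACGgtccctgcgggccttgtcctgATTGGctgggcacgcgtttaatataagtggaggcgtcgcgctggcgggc
TAPBP: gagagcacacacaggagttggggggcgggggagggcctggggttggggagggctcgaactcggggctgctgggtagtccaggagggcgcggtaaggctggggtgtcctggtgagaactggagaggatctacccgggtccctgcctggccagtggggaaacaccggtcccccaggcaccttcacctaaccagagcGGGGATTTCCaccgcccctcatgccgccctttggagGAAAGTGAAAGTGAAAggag

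HLA-B and HLA-C both held an NF-kB consensus, then TGACG, then CCAAT on the gene's strand at position -56 from the start. They differed in their other CCAAT matches: HLA-B had inverted ones at -81 and -74, and HLA-C had inverted ones at -192, ahead of its NF-kB consensus, and at -80, with another on the gene's strand at -95. B2M held the interferon-stimulated core at positions -144 and -138, ahead of an NF-kB consensus, TGACG and an inverted CCAAT. TAPBP held an NF-kB consensus and overlapping interferon-stimulated cores at positions -20 and -14, with no CCAAT or TGACG in its window. The interferon-stimulated core was present in 5 of the 8 member windows (B2M, HLA-F, 1 of the TAP1 windows, TAP2 and TAPBP) and in 3.57% of 35116 RefSeq promoters. CCAAT was in 5 of 8 and in 34.6% of promoters, TGACG in 4 of 8 and 24.6%, the NF-kB consensus in 5 of 8 and 11.3%. A gamma-activated site (TTC and GAA separated by any 3 bases) was in 1 TAP1 window and 7.66% of promoters. The windows held 11 to 24 CG dinucleotides, against a median of 14 over all promoters. These are letters in reference windows. No factor or methylation was measured in the data used here, and the alleles of the lines may differ from the reference.

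The lines differed in their levels of every member. PF382 had the lowest median over its 8 libraries for each of the 9 genes. Differences between lines were called for all 9 members by edgeR's quasi-likelihood test at an adjusted p under 0.05, against a background of 98.1% of all genes called, so the count says nothing particular about them. For HLA-B, the 8 libraries of a line ran from 53.1 CPM (median 104) to 472 CPM in PF382, from 804 (median 1067) to 1290.1 CPM in TLOm1, from 1081 (median 1254) to 1428 CPM in H9, and from 1507 (median 2162) to 2413 CPM in HH. The order for HLA-B was therefore PF382, TLOm1, H9 and HH, in which TLOm1 and H9 overlapped and the other neighbours did not. HLA-C ran from PF382 (115 to 385 CPM) over H9 (370 to 451 CPM) and TLOm1 (424 to 646 CPM) to HH (921 to 1431 CPM), and of these neighbours TLOm1 and HH did not overlap. HLA-E in HH (333 to 596 CPM) lay above TLOm1 (206 to 306 CPM) and H9 (211 to 319 CPM), and PF382 (109 to 345 CPM) overlapped all of them. HLA-F was 5.76 to 28.6 CPM in PF382, against 37.2 to 83.0 CPM over TLOm1, HH and H9, which overlapped one another. B2M was ordered otherwise. PF382 (472 to 975 CPM) and H9 (680.0 to 887 CPM) overlapped, HH stood above them (1004 to 1380.3 CPM) and TLOm1 above all (2639 to 4815 CPM). TAP1 was 36.1 to 64.9 CPM in PF382 and 161 to 373 CPM elsewhere, and TAP2 54.4 to 78.1 CPM in PF382, 110.0 to 140.1 CPM in TLOm1 and 180.3 to 276 CPM in the overlapping lines HH and H9. TAPBP overlapped between TLOm1 (64.9 to 181 CPM) and PF382 (93.7 to 130.5 CPM), below H9 (183 to 227 CPM) and HH (230.4 to 451 CPM). NLRC5 ran in the order PF382 (19.5 to 51.2 CPM), TLOm1 (58.2 to 130.2 CPM), H9 (128 to 180.4 CPM) and HH (196 to 306 CPM), and TLOm1 and H9 overlapped. The share of a gene's variance in log2 CPM that lay between lines ran from 63.8% for HLA-E to 95.5% for TAP2.

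**Figure D1:**
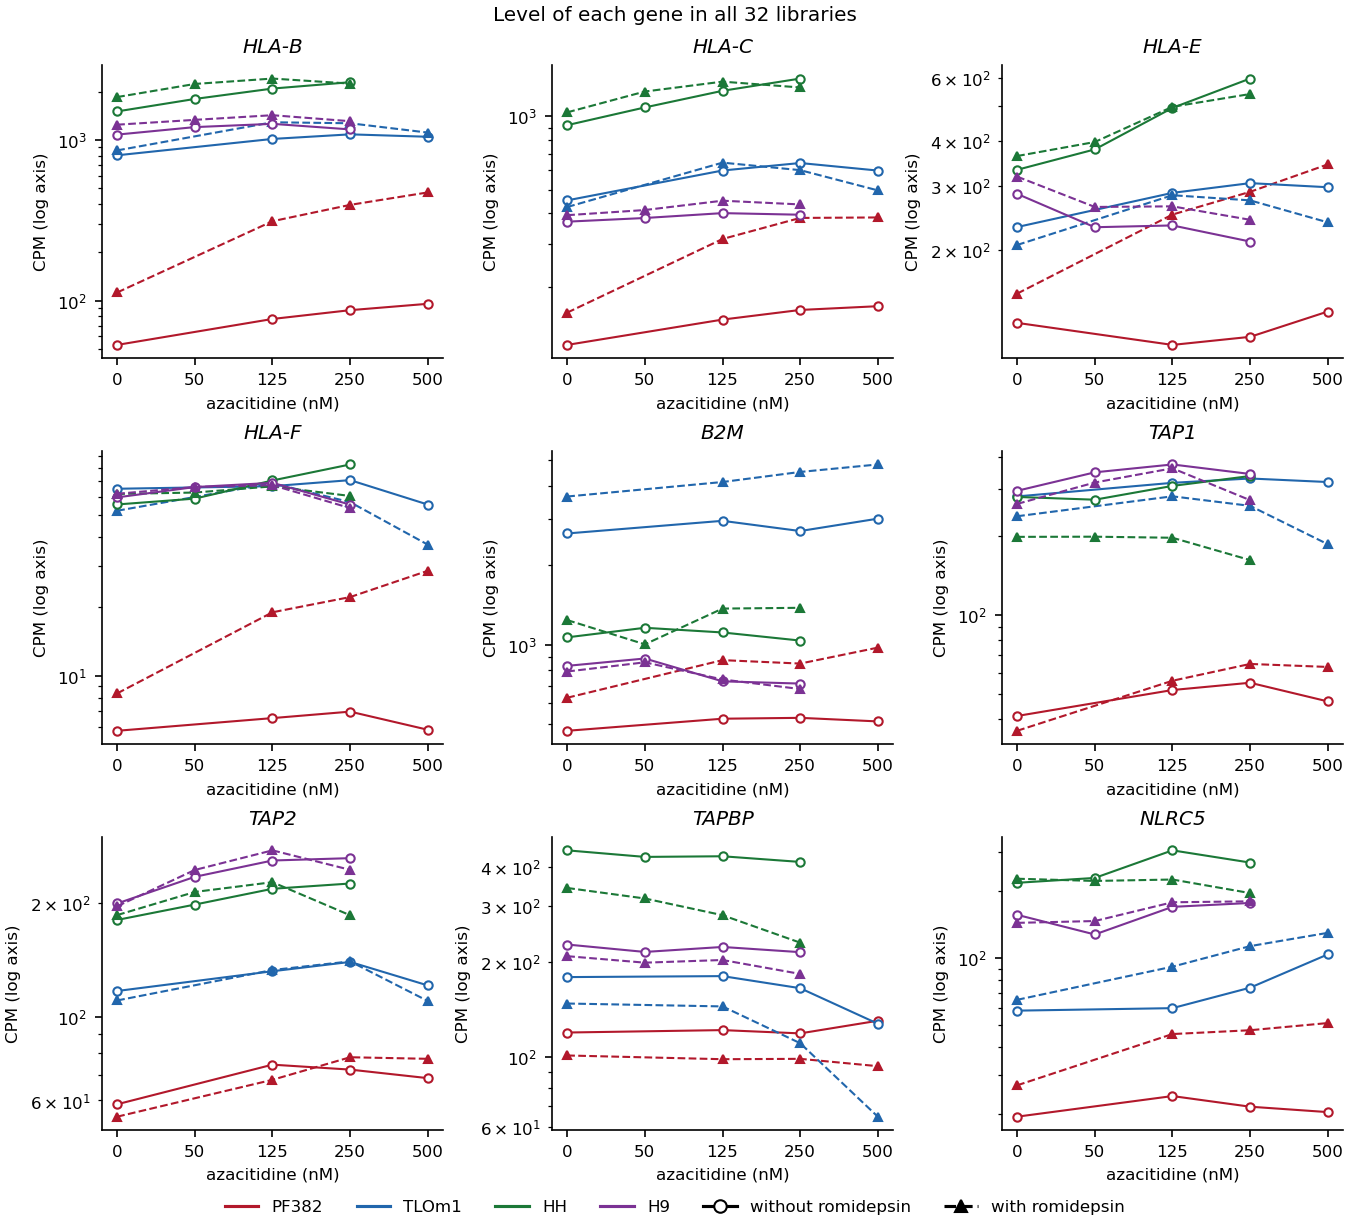
Each panel plots 1 gene in all 32 libraries, as TMM-scaled CPM on a log axis against the azacitidine dose in nM (equal spacing per dose), with colours for lines, open circles and solid lines without romidepsin, and triangles and dashed lines with it. In PF382 the romidepsin and no-romidepsin curves of HLA-B part from 113 against 53.1 CPM without azacitidine to 472 against 95.7 CPM at 500 nM, while in H9 both curves lie between 1081 and 1428 CPM.

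The clearest change over the 4 lines came with both drugs together. With romidepsin and 250 nM azacitidine, the highest dose given to all lines, 5 members rose and 1 fell against untreated cells. HLA-B, a classical heavy chain, rose by 1.13 ± 0.36 (log2 change ± SE, adjusted p = 0.0264), HLA-C, another classical heavy chain, by 0.74 ± 0.22 (adjusted p = 0.0184), and B2M, their light chain, by 0.43 ± 0.13 (adjusted p = 0.0193). The transactivator NLRC5 rose by 0.61 ± 0.22 (adjusted p = 0.0491) and the transporter chain TAP2 by 0.26 ± 0.075 (adjusted p = 0.0161). TAPBP fell by 0.56 on the log2 scale (SE 0.14, adjusted p = 0.00552). HLA-E, the heavy chain read by NKG2A receptors, had an estimate of 0.50 ± 0.26, HLA-F 0.41 ± 0.35 and TAP1 -0.08 ± 0.18, none of them called. Of all genes tested, 23% were called in this comparison, and the median log2 change was 0.43 over the 9 members and 0.04 over all genes. The sizes differed widely between lines: the ratio to untreated cells for HLA-B was 7.44 in PF382, 1.58 in TLOm1, 1.49 in HH and 1.21 in H9. TAPBP was below the untreated level in all 4 lines, with ratios of 0.826 in PF382, 0.618 in TLOm1, 0.511 in HH and 0.807 in H9. B2M was above it in PF382 (1.80), TLOm1 (1.71) and HH (1.29) but not in H9 (0.817), and NLRC5 was below it in HH (0.899). Without PF382, the log2 change of HLA-B was 0.50 (adjusted p = 0.00205), that of HLA-C 0.38 (adjusted p = 0.0124) and that of TAPBP -0.65 (adjusted p = 0.00131), while B2M (0.29, adjusted p = 0.2), TAP2 (0.20, adjusted p = 0.085) and NLRC5 (0.37, adjusted p = 0.205) were no longer called. B2M was also not called without TLOm1 (0.32, adjusted p = 0.195) or HH (0.44, adjusted p = 0.0922), and TAP2 not without H9 (0.24, adjusted p = 0.102). NLRC5 lost its call without TLOm1 (0.47, adjusted p = 0.207) or H9 (0.75, adjusted p = 0.0935), in limma-voom (0.46, adjusted p = 0.149) and with no low-count filter (0.61, adjusted p = 0.0661). HLA-B was not called without HH (1.29, adjusted p = 0.0799) or H9 (1.41, adjusted p = 0.0537), nor were HLA-C (0.81, adjusted p = 0.0762) and TAPBP (-0.44, adjusted p = 0.0706) without HH. A fit on the 8 compared libraries alone called 0 of the 9 members and 22 of all genes.

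**Figure D2:**
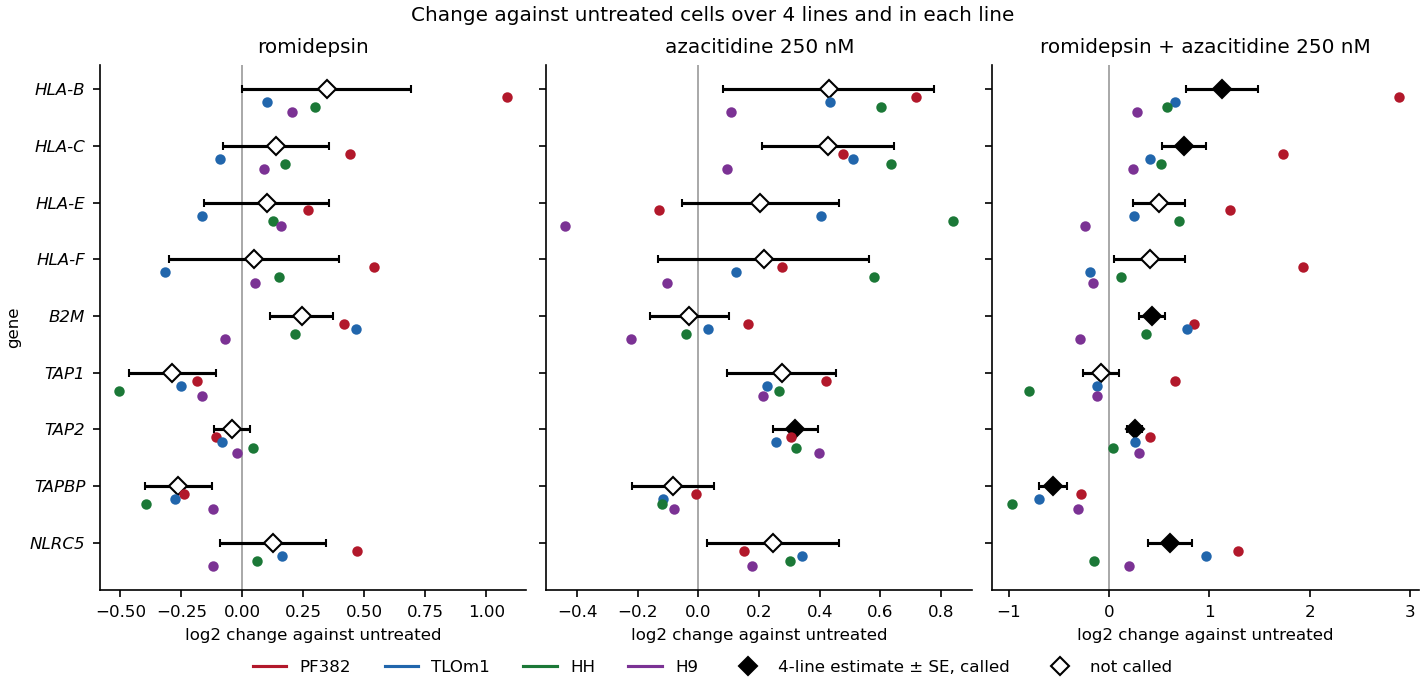
Log2 change against untreated cells for the 9 genes under romidepsin, 250 nM azacitidine and both: diamonds with bars are the estimate over 4 lines ± SE, filled where adjusted p is under 0.05, and coloured points are the log2 ratios of CPM within each line. In the panel of both drugs 6 diamonds are filled, and the PF382 point of HLA-B lies apart at 2.89.

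At 125 nM azacitidine with romidepsin, 2 members were called, B2M (0.43 ± 0.13, adjusted p = 0.0465) and TAP2 (0.30 ± 0.074, adjusted p = 0.0173), both higher, where 7% of all genes were called. HLA-B had an estimate of 1.04 ± 0.35 and HLA-C of 0.70 ± 0.22 at that dose, with adjusted p = 0.0772 and 0.0555. Both were called by DESeq2 (adjusted p = 0.0303 and 0.0222) and, with smaller estimates, without PF382 (0.58, adjusted p = 0.00371, and 0.45, adjusted p = 0.0142), and HLA-C also by limma-voom (0.68, adjusted p = 0.0473). B2M lost its call without PF382 (0.27, adjusted p = 0.356), without TLOm1 (0.36, adjusted p = 0.233) or without HH (0.43, adjusted p = 0.191), and TAP2 without HH (0.27, adjusted p = 0.0906) or H9 (0.24, adjusted p = 0.181). Set against 250 nM azacitidine alone, the combination had higher B2M (0.46 ± 0.13, adjusted p = 0.0373) and lower TAPBP (-0.47 ± 0.14, adjusted p = 0.0423), 2 of 9 members with 5.67% of all genes called. Each of those calls was lost in fits without TLOm1 (B2M 0.37, adjusted p = 0.241; TAPBP -0.43, adjusted p = 0.0523) or without HH (B2M 0.48, adjusted p = 0.173; TAPBP -0.35, adjusted p = 0.282). B2M was also not called without PF382 (0.38, adjusted p = 0.193), nor TAPBP without H9 (-0.56, adjusted p = 0.0878). Set against romidepsin alone, it had higher TAP2 (0.30 ± 0.075, adjusted p = 0.0103), 1 of 9 members with 14.1% of all genes called. That call was lost without PF382 (0.22, adjusted p = 0.0729) or H9 (0.29, adjusted p = 0.0793). HLA-C was called there by DESeq2 (0.63, adjusted p = 0.0326), and without PF382 the fit called HLA-B (0.30, adjusted p = 0.046), HLA-C (0.32, adjusted p = 0.0385) and TAPBP (-0.38, adjusted p = 0.0405). These comparisons share their combination libraries. In HH the comparison with romidepsin alone also spans a change in romidepsin dose, which was higher in the combination.

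Single drugs gave few calls over the 4 lines. Romidepsin alone called 0 of 9 members in edgeR's quasi-likelihood test, with 0 at an unadjusted p under 0.05 and 0 by DESeq2 and limma-voom, and it called 0.0169% of all genes. Its estimates were highest for HLA-B (0.35 ± 0.35) and B2M (0.24 ± 0.13) and lowest for TAP1 (-0.29 ± 0.18) and TAPBP (-0.26 ± 0.14). Azacitidine at 250 nM raised TAP2 by 0.32 ± 0.074 (adjusted p = 0.0125), 1 of 9 members where 5.99% of all genes were called, and TAP2 was higher than untreated in 4 of 4 lines (ratios of 1.23 in PF382, 1.19 in TLOm1, 1.25 in HH and 1.32 in H9). That call was lost without HH (0.30, adjusted p = 0.0655) or H9 (0.29, adjusted p = 0.14). HLA-B (0.43 ± 0.35) and HLA-C (0.43 ± 0.22) were not called over 4 lines, and both were called without PF382 (0.38, adjusted p = 0.0278, and 0.41, adjusted p = 0.0203). At 125 nM 0 members were called, 1 had an unadjusted p under 0.05 (TAP2, called by DESeq2 with 0.28 and adjusted p = 0.0144), and 0.461% of all genes were called. At 500 nM, given to PF382 and TLOm1, 0 members were called and 0 had an unadjusted p under 0.05, although 13.1% of all genes were called, and DESeq2 and limma-voom called 0 members. At 50 nM, given to HH and H9, 0 members were called by these 3 tools, 0 had an unadjusted p under 0.05, and 0.00562% of all genes were called. The dose slope was 1 slope over azacitidine libraries with and without romidepsin, so it is not an effect of a single drug. Per doubling of the azacitidine dose, NLRC5 rose by 0.15 ± 0.042 (adjusted p = 0.00897) and TAPBP fell by 0.11 on the log2 scale (SE 0.040, adjusted p = 0.0419), 2 of 9 members beside 28.2% of all genes. When libraries with romidepsin had a slope of their own, the slope without romidepsin was called for neither gene. It was 0.16 for NLRC5 (adjusted p = 0.121) and -0.04 for TAPBP (adjusted p = 0.714). NLRC5 lost the call without TLOm1 (0.09, adjusted p = 0.166), H9 (0.13, adjusted p = 0.0745) or the lowest dose of each line (0.16, adjusted p = 0.271). TAPBP lost it without TLOm1 (-0.03, adjusted p = 0.457) or HH (-0.11, adjusted p = 0.1), under RLE scaling (-0.10, adjusted p = 0.0564), and without the lowest (-0.17, adjusted p = 0.203), middle (-0.10, adjusted p = 0.132) or highest dose of each line (-0.04, adjusted p = 0.566).

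Because the lines diverged, the romidepsin effect was estimated within each line from 4 libraries with and 4 without the drug, matched on azacitidine dose. The effects of the 4 lines were unequal for 8 of 9 members, all but TAP2 (adjusted p = 0.937), beside 33% of all genes. In PF382 7 of 9 members were called, 6 higher and 1 lower, where 30.7% of all genes were called. TLOm1 had 2 higher and 2 lower with 32.6% of all genes, HH 2 lower with 27.7%, and H9 0 with 4.47% (0 members at an unadjusted p under 0.05, and 0 by DESeq2). The median log2 effect over the 9 members was 0.98 in PF382, -0.09 in TLOm1, -0.01 in HH and 0.01 in H9, and over all genes it was 0.01 in PF382 and TLOm1 and 0 in HH and H9.

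Heavy chains were raised by romidepsin in PF382, on average over azacitidine doses. Romidepsin alone against untreated gave log2 ratios there of 1.08 for HLA-B, 0.44 for HLA-C, 0.27 for HLA-E and 0.54 for HLA-F, from 1 pair of libraries. Levels follow, listed by rising azacitidine dose. HLA-B in PF382 was 53.1, 77.0, 87.4 and 95.7 CPM without romidepsin and 113, 313, 395 and 472 CPM with it at 0, 125, 250 and 500 nM azacitidine. The lowest library with romidepsin was above the highest without it, and the effect was 1.91 ± 0.14 (adjusted p = 4.61e-08). In TLOm1, HLA-B was 804, 1016, 1085 and 1048 CPM without romidepsin and 862, 1290.1, 1272 and 1113 CPM with it. HH held 1507, 1802, 2091 and 2290.1 CPM without romidepsin and 1852, 2234, 2413 and 2246 CPM with it at 0, 50, 125 and 250 nM azacitidine. H9 held 1081, 1204, 1261 and 1165 CPM without romidepsin and 1246, 1335, 1428 and 1309.9 CPM with it. The ranges with and without romidepsin overlapped in each of these 3 lines. At matched azacitidine doses, however, the HLA-B ratio of romidepsin to no romidepsin was above 1 in every pair of TLOm1 (1.07, 1.27, 1.17 and 1.06) and of H9 (1.15, 1.11, 1.13 and 1.12), and in HH in all but the last (1.23, 1.24, 1.15 and 0.981). The effects were 0.19 ± 0.13, 0.20 ± 0.13 and 0.18 ± 0.13, none called. When PF382 was left out of the fit, HLA-B was called in TLOm1 (0.19, adjusted p = 0.0143) and HH (0.20, adjusted p = 0.0124), as it was without the pairs that had no azacitidine (0.23, adjusted p = 0.0148, and 0.19, adjusted p = 0.0424), and the effects of the 3 remaining lines did not differ detectably (adjusted p = 0.97). HLA-C in PF382 was 115, 146, 160.3 and 166 CPM without romidepsin and 156, 314, 383 and 385 CPM with it, an effect of 1.01 ± 0.095 (adjusted p = 2.38e-07). Elsewhere its effects were between -0.09 and 0.13 and not called, over 424 to 646 CPM in TLOm1, 921 to 1431 CPM in HH and 370 to 451 CPM in H9.

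The nonclassical heavy chains, which show little variation between people, followed in PF382. HLA-E, the ligand of NKG2A, was 125, 109, 115 and 135 CPM without romidepsin and 151, 250.3, 289 and 345 CPM with it, an effect of 1.05 ± 0.12 (adjusted p = 4.62e-06). All 4 libraries with romidepsin exceeded all 4 without it. Outside PF382 the HLA-E effects were -0.17 ± 0.12 in TLOm1, 0.02 ± 0.12 in HH and 0.18 ± 0.12 in H9, none called, and in fits without PF382 TLOm1 was called lower (-0.17, adjusted p = 0.0302). HLA-F was 5.76, 6.54, 6.98 and 5.82 CPM without romidepsin and 8.38, 18.9, 22.0 and 28.6 CPM with it, from 141 counts in the untreated library to 797 counts in the library with both drugs at the highest dose, an effect of 1.57 ± 0.18 (adjusted p = 6.44e-06). HLA-F in TLOm1 was lower with romidepsin at each matched dose except 125 nM, and it was 65.0, 66.8, 70.9 and 55.5 CPM without romidepsin and 52.2, 68.8, 56.9 and 37.2 CPM with it, and the effect of -0.29 ± 0.15 was not called unless PF382 was left out (-0.29, adjusted p = 0.0253). The 4 heavy chains may share reads with near-identical HLA genes, and no source used here says how such reads were counted. Summed to 1 row, the 4 rose by 1.28 ± 0.13 with romidepsin in PF382 (adjusted p = 1.58e-06) and by 0.81 ± 0.25 with both drugs at 250 nM over the 4 lines (adjusted p = 0.0243).

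B2M, which encodes the light chain, responded in the lines PF382 and TLOm1. It was 472, 525, 529 and 513 CPM without romidepsin and 630.2, 875, 849 and 975 CPM with it in PF382, an effect of 0.69 ± 0.082 (adjusted p = 2.91e-06). In TLOm1 it was 2639, 2946, 2695 and 3002 CPM without romidepsin and 3641, 4132, 4511 and 4815 CPM with it, an effect of 0.60 ± 0.081 (adjusted p = 2.25e-05). In both lines every library with romidepsin was above every library without it. HH, with 1067, 1159.6, 1113 and 1037 CPM without romidepsin and 1240.3, 1004, 1371 and 1380.3 CPM with it, had overlapping groups and an effect of 0.19 ± 0.081 that was not called (adjusted p = 0.0995) and became so without the lowest azacitidine dose of each line (0.31, adjusted p = 0.0126). H9, with 832, 887, 727 and 713 CPM without romidepsin and 792, 858, 739 and 680.0 CPM with it, had an effect of -0.04 ± 0.081. A symbol of the same locus, LOC100652936, took 277 to 3077 CPM and followed B2M closely (Pearson r = 0.997 over 32 libraries after line means were taken off), so reads may be split between them. B2M and LOC100652936 summed gave 0.69 ± 0.081 in PF382 and 0.60 ± 0.081 in TLOm1.

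Among the peptide transport and loading genes, TAP1 and TAPBP fell with romidepsin and TAP2 was not called in any line. TAP1, a chain of the peptide transporter, fell with romidepsin in HH by 0.67 on the log2 scale (SE 0.10, adjusted p = 7.45e-05), with 281, 274, 309 and 337 CPM without romidepsin and 198, 198, 196 and 161 CPM with it. In TLOm1 it was 282, 318, 330.2 and 320.1 CPM without romidepsin and 237, 282, 259.7 and 186 CPM with it and fell by 0.39 on the log2 scale (SE 0.10, adjusted p = 0.00685). The HH groups did not overlap, those of TLOm1 met at 282 CPM, and the TLOm1 call was lost without the middle azacitidine dose of each line (-0.39, adjusted p = 0.0589). PF382 held 41.1, 51.6, 55.0 and 46.7 CPM without romidepsin and 36.1, 56.0, 64.9 and 63.2 CPM with it, an effect of 0.16 ± 0.11, and H9 296, 349, 373 and 344 CPM without romidepsin and 264, 319, 361 and 273 CPM with it, an effect of -0.17 ± 0.10, neither called. TAP1 shares its locus with LOC100507463, an antisense gene, and no source used here gives the strand setting of the counting. The sum of both fell by 0.64 on the log2 scale in HH (adjusted p = 7.33e-05) and by 0.35 in TLOm1 (adjusted p = 0.00923). TAP2, the partner chain, stayed within 0.05 of no change on the log2 scale in each line, with effects of 0.01 ± 0.066 in PF382, -0.05 ± 0.065 in TLOm1, -0.01 ± 0.065 in HH and 0.01 ± 0.064 in H9.

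TAPBP fell with romidepsin in 3 of 4 lines. In HH it was 451, 430.1, 432 and 415 CPM without romidepsin and 343, 318, 281 and 230.4 CPM with it, a fall of 0.57 on the log2 scale (SE 0.085, adjusted p = 4.03e-05). TLOm1 held 179, 181, 165 and 128 CPM without romidepsin and 148, 145, 111 and 64.9 CPM with it, and TAPBP fell by 0.53 on the log2 scale (SE 0.086, adjusted p = 0.000112). The groups were apart in HH and overlapped in TLOm1, where 500 nM azacitidine without romidepsin was itself low. PF382, with 119.7, 122, 119 and 130.4 CPM without romidepsin and 101, 98.6, 98.9 and 93.7 CPM with it, fell by 0.32 on the log2 scale (SE 0.086, adjusted p = 0.00765), with the groups apart, and lost the call without the middle dose of each line (-0.36, adjusted p = 0.051). H9 held 227, 215, 223 and 215 CPM without romidepsin and 209, 199, 203 and 183 CPM with it, an effect of -0.15 ± 0.085 that was not called (adjusted p = 0.381). The effects of the 4 lines were called unequal (adjusted p = 0.0271), a call lost without HH (adjusted p = 0.0625), H9 (adjusted p = 0.31) or the lowest (adjusted p = 0.0787) or middle dose of each line (adjusted p = 0.287). The unequal call of TAP1 was also lost without the middle dose (adjusted p = 0.0685).

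NLRC5, the transactivator, rose with romidepsin where B2M did. In PF382 it was 19.5, 24.1, 21.6 and 20.4 CPM without romidepsin and 26.9, 45.7, 47.6 and 51.2 CPM with it, an effect of 0.98 ± 0.12 (adjusted p = 4.7e-06). All 4 libraries with the drug were above all 4 without. In TLOm1 it was 58.2, 59.8, 73.8 and 104 CPM without romidepsin and 65.1, 91.8, 114 and 130.2 CPM with it, an effect of 0.43 ± 0.11 (adjusted p = 0.00542), with overlapping groups. That call was lost without the lowest dose of each line (0.37, adjusted p = 0.0578) or the middle dose (0.38, adjusted p = 0.0721). HH held 218, 229.7, 306 and 269 CPM without romidepsin and 228, 223, 226 and 196 CPM with it and H9 157, 128, 170.3 and 177 CPM without romidepsin and 144, 147, 179 and 180.4 CPM with it, effects of -0.22 ± 0.11 and 0.04 ± 0.11, neither called. NLRC5 in HH was called lower without the pair that had no azacitidine (-0.28, adjusted p = 0.0247).

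**Figure D3:**
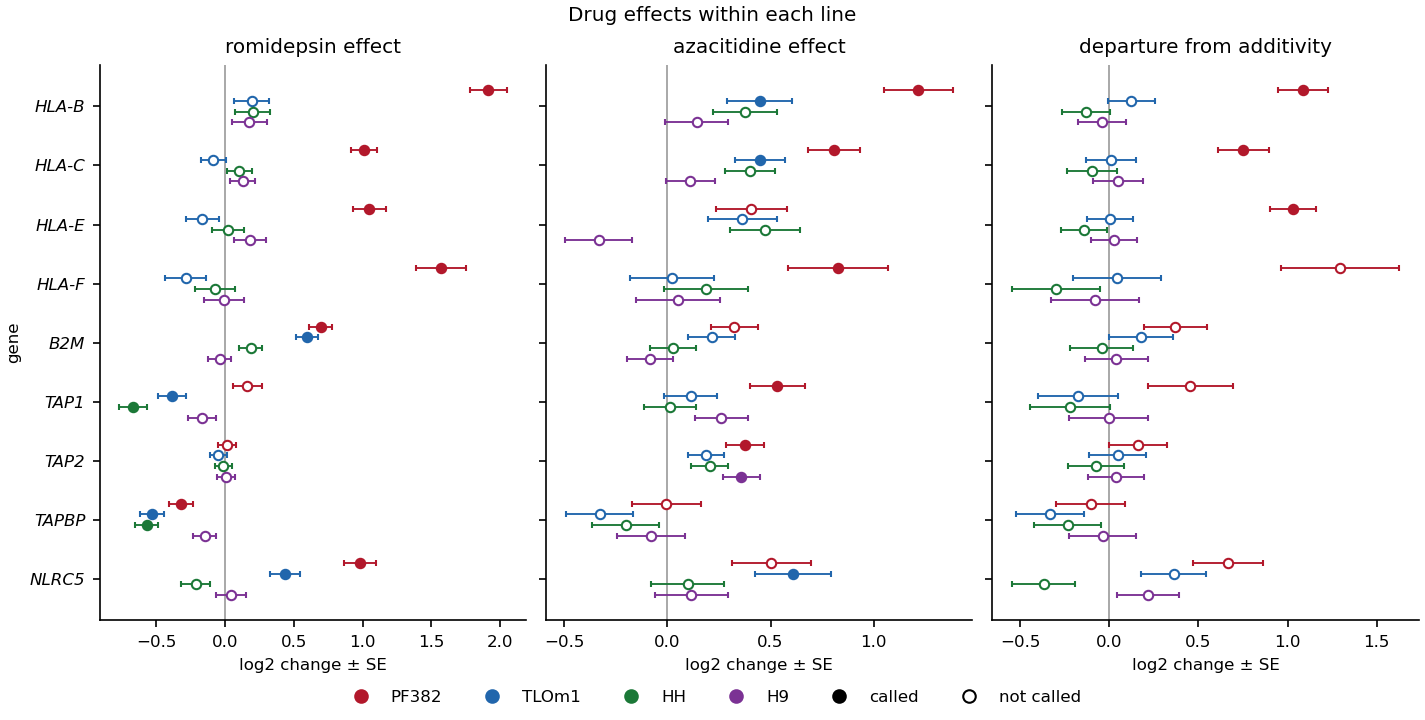
Effects of romidepsin, of azacitidine and of their departure from additivity in each line, as log2 change ± SE from the line models (colours for lines, filled where adjusted p is under 0.05). For romidepsin the PF382 points of the 4 heavy chains and NLRC5 lie between 0.98 and 1.91, and the TAPBP points of PF382, TLOm1 and HH are filled below 0.

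The azacitidine effect within a line compared 6 libraries with any dose and 2 without. Both sets held libraries with and without romidepsin, so the effect is an average over the 2 and not that of azacitidine alone. In HH the library with romidepsin alone also had a lower dose of that drug than the combinations. In PF382 5 members rose, HLA-B by 1.22 ± 0.17 (adjusted p = 8.51e-05), HLA-C by 0.81 ± 0.13 (adjusted p = 0.000354), HLA-F by 0.83 ± 0.24 (adjusted p = 0.0351), TAP1 by 0.53 ± 0.13 (adjusted p = 0.0148) and TAP2 by 0.37 ± 0.091 (adjusted p = 0.0117), where 8.33% of all genes were called. At 250 nM azacitidine alone, ratios to untreated PF382 were 1.645 (HLA-B), 1.392 (HLA-C), 1.212 (HLA-F), 1.338 (TAP1) and 1.235 (TAP2). Ratios of the combination at that dose to romidepsin alone were 3.508, 2.449, 2.624, 1.797 and 1.437 in the same order. TLOm1 had 3 higher members beside 18.7% of all genes: HLA-B (0.45 ± 0.16, adjusted p = 0.0469), HLA-C (0.45 ± 0.12, adjusted p = 0.0139) and NLRC5 (0.61 ± 0.18, adjusted p = 0.0239). HH had 0 called members beside 5.87% of all genes, although 4 had an unadjusted p under 0.05, and HLA-C (0.40 ± 0.12, adjusted p = 0.0512) was called by DESeq2 (adjusted p = 0.0162). In HH without romidepsin, HLA-E was 333 CPM at 0 nM, 379 CPM at 50 nM, 494 CPM at 125 nM and 596 CPM at 250 nM. H9 had 1 called member, TAP2 (0.36 ± 0.089, adjusted p = 0.0185), beside 5.86% of all genes. TAP2 in H9 was 199, 235, 259 and 263 CPM without romidepsin and 196, 245, 276 and 245 CPM with it, and in each series every treated library was above the untreated one. HLA-E in H9 was 286, 231, 234 and 211 CPM without romidepsin and 319, 263, 264 and 242 CPM with it, an effect of -0.33 ± 0.16 that was not called (adjusted p = 0.248). The 4 azacitidine effects were called unequal for 2 of 9 members, HLA-B (adjusted p = 0.0133) and HLA-C (adjusted p = 0.0461), beside 10.7% of all genes. The azacitidine doses pooled in these effects were not the same in all lines, so unequal effects mix line with dose. The part of the dose was not tested. HLA-B in TLOm1 was not called without HH (0.45, adjusted p = 0.066) or H9 (0.44, adjusted p = 0.0888), nor HLA-F in PF382 (0.81, adjusted p = 0.0564, and 0.82, adjusted p = 0.0652), and without PF382 HH gained HLA-B (0.37, adjusted p = 0.0122), HLA-C (0.40, adjusted p = 0.0185) and HLA-E (0.47, adjusted p = 0.0382). Both unequal calls were lost without PF382 (adjusted p = 0.169 for each), without H9 (adjusted p = 0.0832 and 0.337) and without the middle dose (adjusted p = 0.21 and 0.318), and that of HLA-C also without TLOm1 (adjusted p = 0.0509) or the highest dose (adjusted p = 0.0515). HLA-E, at adjusted p = 0.0523 in this test, was called unequal by DESeq2 (adjusted p = 0.0144), with a minimum count of 30 (adjusted p = 0.0486), without PF382 (adjusted p = 0.0181), without HH (adjusted p = 0.0467) and without the lowest dose (adjusted p = 0.0193). NLRC5 in TLOm1 was not called without the highest dose (0.42, adjusted p = 0.0927), nor HLA-B there without the lowest (0.44, adjusted p = 0.0509). Fits without the middle dose of each line called 2 members in PF382 (HLA-B and HLA-C) and 0 in TLOm1, HH and H9. Over fits with 1 line or 1 dose left out, genes called ran from 211 to 2912 in PF382 and 554 to 5381 in TLOm1. They ran from 82 to 2247 in HH and 54 to 2291 in H9.

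Whether both drugs together exceeded the sum of their log2 effects was tested at 250 nM over the 4 lines and, after the values had been seen, within each line. The within-line test was not at 250 nM alone. It set the romidepsin effect averaged over the 3 azacitidine doses of a line against that of the pair without azacitidine. Those doses were not the same in all lines. Over the 4 lines 0 of 9 members and 0% of all genes departed from additivity, with 0 members at an unadjusted p under 0.05 and 0 by DESeq2 and limma-voom. HLA-B had an estimate of 0.35 ± 0.49. Within PF382 3 members were above additivity, HLA-B by 1.09 ± 0.14 (adjusted p = 0.00198), HLA-E by 1.03 ± 0.13 (adjusted p = 0.00198) and HLA-C by 0.75 ± 0.14 (adjusted p = 0.0363), where 0.287% of all genes were called. HLA-F (1.29 ± 0.33, adjusted p = 0.145) and NLRC5 (0.67 ± 0.20, adjusted p = 0.236) were not called, and DESeq2 called HLA-F as well (adjusted p = 0.0111). The PF382 ratio of romidepsin to no romidepsin for HLA-B was 2.12 without azacitidine and 4.06, 4.52 and 4.93 at 125, 250 and 500 nM, so the ratio at each azacitidine dose was above the ratio without it. For HLA-E the ratios were 1.21, 2.30, 2.52 and 2.56. The romidepsin effect without azacitidine rests on 1 pair of libraries per line, and without the middle dose of each line none of the 3 was called (HLA-B 1.085, adjusted p = 0.292). HLA-C also lost its call without H9 (0.75, adjusted p = 0.0859). In TLOm1, HH and H9 0 members and 0% of all genes were called by edgeR, with 0, 1 and 0 members at an unadjusted p under 0.05 and 0 by DESeq2. The HH titles give a lower romidepsin dose for the drug alone than for the combinations. The HH departure therefore mixes that dose change with any interaction. The departure over the 4 lines and the test of equal departures include HH and carry the same limit. The departures of the 4 lines were not called unequal for any member (0% of all genes, 5 members at an unadjusted p under 0.05, HLA-B and HLA-E at adjusted p = 0.101), while DESeq2 called 3 members, HLA-B, HLA-C and HLA-E. HLA-B and HLA-E were also called unequal without TLOm1 (adjusted p = 0.0435 and 0.0378), and all 3 without the highest dose of each line (adjusted p = 0.000178 for HLA-B, 0.0135 for HLA-C and 0.000443 for HLA-E).

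Within PF382 the members formed a block. Over its 8 libraries the log2 CPM of HLA-B, HLA-C, HLA-E, HLA-F, B2M and NLRC5 correlated pairwise with Pearson r of 0.953 to 0.993, and TAPBP ran against each of them (r of -0.919 to -0.793). TAP1 and TAP2 went with each other (r = 0.938) and less with the heavy chains (0.410 to 0.793). Over the 24 libraries of the other 3 lines, with line means taken off, HLA-B still followed HLA-C (0.871), but B2M was at -0.02 with HLA-C and -0.43 with HLA-F, and TAP1 followed TAPBP (0.768). These libraries share lines and doses, so the values describe them and carry no test.

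**Figure D4:**
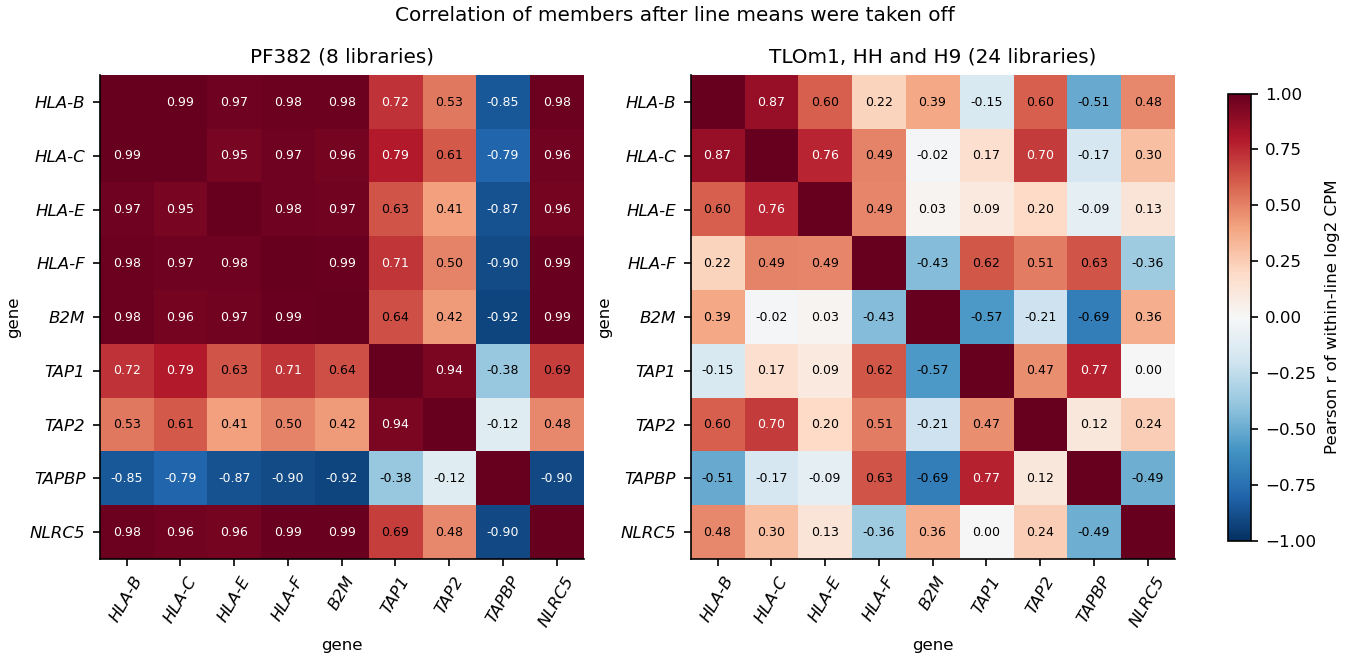
Pearson r between members of within-line log2 CPM, for the 8 PF382 libraries and for the 24 libraries of TLOm1, HH and H9 after line means were taken off; red is positive and blue negative. The PF382 panel shows a red block of heavy chains, B2M and NLRC5 at 0.953 or more and a blue TAPBP row, and the other panel is paler.

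Over all 32 libraries, again within lines, the tested genes that followed a member most closely were HCP5 for HLA-B (r = 0.962), ahead of ADAM15 (0.942) and TNFRSF1B (0.937), and TSPO (0.939) and HCP5 (0.937) for HLA-C. For HLA-E they were PLXNB2 (0.914), RNF157 (0.912) and LTBP4 (0.905), and for HLA-F CCR7 (0.940), MAPK12 (0.906) and CLCC1 (0.904). B2M was followed, after LOC100652936, by STAC2 (0.898) and RHOBTB3 (0.873), and NLRC5 by ATCAY (0.901), RGS9 (0.883) and RCAN3 (0.859). TAPBP had C22orf13 (0.931) among its closest, TAP1 had LOC100507463 (0.908), STAP2 (0.859) and S1PR4 (0.852), and TAP2 had XYLB (0.802), PDE6G (0.785) and SHROOM1 (0.781).

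Other genes of the pathway moved in both directions. Of 14 genes for peptide supply and loading partners (immunoproteasome subunits, aminopeptidases, chaperones), the combination with 250 nM raised 1 and lowered 3, a share near the 23% of all genes called. Romidepsin lowered 5 and raised 2 in PF382 (30.7% of all genes called), lowered 7 and raised 1 in TLOm1 (32.6%), lowered 7 and raised 3 in HH (27.7%), and raised 2 in H9 (4.47%). These shares of all genes stand beside the romidepsin counts of the lists that follow as well. TAPBPL, the tapasin-like peptide editor, fell like TAPBP, by 0.76 on the log2 scale in TLOm1 (SE 0.12, adjusted p = 5.75e-05) and by 0.64 in HH (SE 0.11, adjusted p = 0.000242). The genes called in H9 were the aminopeptidases LNPEP (0.42 ± 0.079, adjusted p = 0.00275) and ERAP2 (0.30 ± 0.075, adjusted p = 0.0244). Azacitidine lowered 5 of the 14 in TLOm1 (18.7% of all genes called), 0 in HH (5.87%), and raised 1 in PF382 (8.33%) and 1 in H9 (5.86%), the chaperone CALR (0.40 ± 0.094, adjusted p = 0.0124). Of the 3 standard proteasome catalytic subunits, romidepsin lowered 1 in PF382, 2 in TLOm1 and 2 in HH, and the combination lowered 1.

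Factors that act on class I promoters were called in both directions. Of 12, the combination lowered 1 and raised 0, beside 23% of all genes, and 250 nM azacitidine raised 1, beside 5.99%: RELA, an NF-kB subunit (0.25 ± 0.068, adjusted p = 0.028). Romidepsin raised 1 and lowered 1 in PF382, lowered 5 in TLOm1 and 3 in HH, and called 0 in H9. Azacitidine raised 1 in PF382 (8.33% of all genes called), raised 2 and lowered 2 in TLOm1 (18.7%), called 0 in HH (5.87%) and raised 1 in H9 (5.86%). CIITA, the class II counterpart of NLRC5, fell by 0.82 on the log2 scale in TLOm1 (SE 0.15, adjusted p = 0.000544) and by 0.67 in HH (SE 0.15, adjusted p = 0.00281), and rose with azacitidine in H9 by 1.09 ± 0.24 (adjusted p = 0.0093). Of 12 interferon receptor and signalling genes, the combination with 250 nM called 0 over the 4 lines, beside 23% of all genes. Romidepsin raised 3 and lowered 1 in PF382, raised 2 and lowered 4 in TLOm1, raised 1 and lowered 4 in HH, and called 0 in H9. SOCS1, an inhibitor of JAK kinases, fell with romidepsin in HH by 1.12 on the log2 scale (SE 0.19, adjusted p = 0.000328) and rose with azacitidine in TLOm1 by 1.15 ± 0.30 (adjusted p = 0.0133). Azacitidine raised 4 and lowered 0 of these genes in TLOm1 (18.7% of all genes called), raised 1 and lowered 1 in PF382 (8.33%) and called 0 in HH (5.87%) and H9 (5.86%). The median log2 effect of azacitidine in TLOm1 was -0.06 over the 12 genes and 0.03 over all genes. The other genes raised in TLOm1, named after their values were seen, were the kinase TYK2 (0.43 ± 0.099, adjusted p = 0.00499) and STAT2 (0.66 ± 0.21, adjusted p = 0.0338) and IRF9 (0.74 ± 0.25, adjusted p = 0.0407), which form part of the complex that type I interferons activate.

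Among 19 tested class I-like molecules and ligands of killer cell receptors, from a list of 20, the combination with 250 nM raised 2 and lowered 3, a share near the 23% of all genes called. FCGRT, the heavy chain of the neonatal Fc receptor and a partner of B2M, rose by 1.86 ± 0.56 (adjusted p = 0.0201), with 126 counts in untreated PF382 and 303 with both drugs, 1 and 37 in TLOm1, 6 and 57 in HH, and 177 and 282 in H9. RAET1E, a ligand of the killer cell receptor NKG2D, was called higher on few counts (adjusted p = 0.000678), from 2 to 21 in TLOm1 and from 1 to 18 in H9, with 0 in both HH libraries. The lipid-presenting molecules CD1C and CD1E were called lower (adjusted p = 0.017 and 0.0137), and their counts lay almost wholly in PF382, where CD1C went from 2377 to 720 and CD1E from 1529 to 547. RAET1E was also called higher with 250 nM azacitidine alone (adjusted p = 0.018), from 2 to 11 counts in TLOm1 and 1 to 14 in H9.

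Within lines, romidepsin raised 6 and lowered 3 of the 19 in PF382, raised 3 and lowered 1 in TLOm1, raised 1 in HH and called 0 in H9. Azacitidine raised 1 and lowered 3 in PF382 (8.33% of all genes called), raised 2 and lowered 2 in TLOm1 (18.7%), and raised 1 in HH (5.87%) and 2 in H9 (5.86%). Romidepsin raised FCGRT in PF382 (0.97 ± 0.26), TLOm1 (1.42 ± 0.47) and HH (1.24 ± 0.45), with adjusted p = 0.00837, 0.0269 and 0.0461. In PF382 it raised HLA-H, a heavy chain pseudogene (1.03 ± 0.14, adjusted p = 1.72e-05), and lowered CD1C (-0.62 ± 0.16, adjusted p = 0.0139). HLA-G, the trophoblast heavy chain, was called in PF382 (adjusted p = 0.0105) on 11 counts over the 4 libraries with romidepsin and 0 over the 4 without. HLA-G and HLA-H are close in sequence to the heavy chain members and may take their reads. ULBP1, another NKG2D ligand, rose in TLOm1 (0.92 ± 0.14, adjusted p = 4.61e-05). With azacitidine, PF382 had higher HLA-H (1.46 ± 0.28, adjusted p = 0.00192) and lower CD1E (-1.57 ± 0.31, adjusted p = 0.0113), CD1C (-1.35 ± 0.28, adjusted p = 0.00932) and CD1A (-1.04 ± 0.23, adjusted p = 0.0244). FCGRT was called higher with azacitidine in TLOm1 (adjusted p = 0.00308), from 1 count in each of the 2 libraries without the drug to 15 to 71 counts in the 6 with it, and in HH (adjusted p = 0.0215), from 0 and 6 to 5 to 57 counts. RAET1E was called in TLOm1 (adjusted p = 0.0189, from 1 and 2 to 9 to 21 counts) and H9 (adjusted p = 0.0412, from 0 and 1 to 4 to 18 counts), and ULBP2 rose in H9 (0.78 ± 0.22, adjusted p = 0.037). CD1C in TLOm1 was called lower with azacitidine (adjusted p = 0.0336), from 4 and 5 counts to 0 in all 6 libraries.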

How the data were processed

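The authors deposited raw counts per gene symbol, 1 table for each of 32 libraries, and every column was used. RNeasy extraction, TruSeq Stranded mRNA libraries and a NextSeq 500 were used, per the labels' protocols, in which both poly(A) RNA and ribosomal depletion appear. STAR, DESeq2, limma and GRCh37.p2 are named in the submitters' processing notes. No source used here gives their versions, the read counter, the annotation or strandedness of counting. A misspelled title was assigned to PF382 by its cell line field.

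Counts were tested with edgeR 4.0.16 (R 4.3.3, limma 3.58.1): filterByExpr (minimum count 10, minimum total 15), TMM, robust quasi-likelihood F tests over all 32 libraries, and Benjamini-Hochberg adjustment over 17801 genes at 0.05. SE is the log2 change divided by the root of F. The main model held treatment group and line (19 residual degrees of freedom). Line models gave romidepsin effects (12), azacitidine effects (20) and departures from additivity (8), and a dose model the slope (21). Libraries of a line deviated together (60 same-line pairs, correlations 0.831 to 0.957), so line paired the samples. No 2 libraries were identical or agreed within sampling noise (smallest chi-square per gene 4.89). DESeq2 1.42.0, limma-voom, RLE scaling, other filters and left-out lines or doses were alternatives, and leaving out lines in the line models, the within-line departures and summed overlapping symbols were added after the data had been seen. Scripts were tested on simulated data. The 9 members are named throughout, and of the pathway lists the 4 genes with the largest change past the threshold per comparison with untreated cells at 250 nM and per line effect, beside the 3 genes that correlated most with each member, of which some are not reported here. Counts quoted for single genes of the lists were added after their values were seen. Members and lists were chosen with earlier results of these data known. Without molecular identifiers, the floor accounts for counting error alone.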

Additional observations from a re-analysis of the deposited data

Results flagged for a closer look

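Romidepsin effects that differed between the 4 lines, by an F test of their equality in edgeR's quasi-likelihood fit, were found for HLA-B (adjusted p = 6.09e-06), HLA-C (adjusted p = 2.21e-05), HLA-E (adjusted p = 0.000153), HLA-F (adjusted p = 7.7e-05), B2M (adjusted p = 0.000166), TAP1 (adjusted p = 0.00175), TAPBP (adjusted p = 0.0271) and NLRC5 (adjusted p = 8.5e-05). Azacitidine effects differed for HLA-B (adjusted p = 0.0133) and HLA-C (adjusted p = 0.0461). The azacitidine doses pooled in those effects were not the same in all lines, so these differences mix line with azacitidine dose. In each of the heavy chains the largest romidepsin effect was that of PF382, and without PF382 the differences of HLA-B (adjusted p = 0.97), HLA-C (adjusted p = 0.136) and HLA-F (adjusted p = 0.247) were not called, whereas that of HLA-E kept its call, as did those of B2M, TAP1, TAPBP and NLRC5. The romidepsin dose was 1.25 nM in all PF382 libraries with the drug and in the 3 combinations of HH. At that dose the HLA-B ratio over the matched azacitidine library was 4.06, 4.52 and 4.93 in PF382, at 125, 250 and 500 nM azacitidine. In HH it was 1.24, 1.15 and 0.981, at 50, 125 and 250 nM azacitidine. The part of the romidepsin dose in the differences between lines was not tested. The line and its disease of origin cannot be told apart.

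PF382 also stood apart in its levels. Of 54 sets of 4 lines under 1 condition, 10 had a library whose gap to its nearest neighbour took up more of the range than Dixon's 95% limit, and in all 10 it was PF382 at the low end. Chance passes that limit in about 1 of 20 independent sets. These sets reuse the same 4 lines and all 10 were of HLA-F or TAP1, so their number cannot be held against that rate. For HLA-F the share of the range was 0.935 in untreated cells (5.76 CPM in PF382), 0.915 with romidepsin (8.38 CPM), 0.976 and 0.838 with 125 and 250 nM azacitidine (6.54 and 6.98 CPM), and 0.976 and 0.880 with both drugs at those doses (18.9 and 22.0 CPM). For TAP1 it was 0.973 in untreated cells (41.1 CPM), 0.855 with romidepsin (36.1 CPM) and 0.905 and 0.978 with 125 and 250 nM azacitidine (51.6 and 55.0 CPM).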

How the results depend on the processing

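Over 2439 values of single members under the alternatives, 448 of 552 calls were kept, 55 values were newly called, 98 uncalled estimates changed sign and no called value changed direction. DESeq2 kept 58 of 58 calls and a minimum count of 30 likewise 58 of 58, RLE scaling 57 of 58, limma-voom 20 of 21 and no low-count filter 18 of 21. Line was the pairing term: with no replicate block for line, 0 members were called for 250 nM azacitidine, either combination against untreated, or the combination against either drug, and fits on only the compared libraries also called 0 in each. DESeq2 called 1 member for 125 nM azacitidine, 4 for the combination at 125 nM, 2 for the combination against romidepsin, 1 for azacitidine in HH and 3 for the equality of departures. No low-count filter left 1 for the combination at 125 nM and 1 for the combination against azacitidine. The dose slope had 1 under RLE scaling and 0 with a slope of its own with romidepsin, and a minimum count of 30 gave 1 for azacitidine in HH. The cause was not tested.

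With 1 line or 1 dose rank left out at a time, members called ran from 0 to 3 for 250 nM azacitidine, 0 to 3 and 2 to 4 for the combination at 125 and 250 nM, 0 to 2 against azacitidine, 0 to 3 against romidepsin, 0 to 2 for the slope, 6 to 7, 2 to 7 and 2 to 4 for romidepsin in PF382, TLOm1 and HH, 5 to 8 for their equality, 2 to 6, 0 to 3, 0 to 3 and 0 to 2 for azacitidine in PF382, TLOm1, HH and H9, 0 to 4 for their equality, 0 to 4 for the departure in PF382 and 0 to 3 for the equality of departures. Genes called ran in those fits from 446 to 678 for 250 nM azacitidine, and 470 to 889 and 2588 to 3116 for the combinations. Ranges were 202 to 633 against azacitidine, 1309 to 1671 against romidepsin and 391 to 5061 for the slope. Romidepsin in PF382, TLOm1 and HH gave 2775 to 6292, 2991 to 5986 and 2444 to 5352, and equality 1936 to 5969. Equality of azacitidine effects gave 61 to 3977, the departure in PF382 0 to 362 and equality of departures 0 to 169. Fits with fewer libraries test on fewer degrees of freedom.

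Counts over all genes moved by over 1.5 times as follows. No block for line gave 0 for romidepsin (3 as reported), 0 for azacitidine at 50 and 125 nM (1 and 82), 1 at 250 nM (1066), 2 at 500 nM (2327), 0 and 5 for the combinations (1246 and 4089), and 0 and 1 for the combination against azacitidine and romidepsin (1010 and 2515). Only the compared libraries gave 0 for azacitidine at each dose, 0 and 22 for the combinations, and 0 and 39 against azacitidine and romidepsin. DESeq2 gave 9 for romidepsin, 8 and 190 for 50 and 125 nM, 1684 and 1770 for azacitidine in HH and H9 (1045 and 1044), 3486 for its equality (1904), 130 for the departure in PF382 (51), 17, 8 and 1 in TLOm1, HH and H9 (0 each) and 39 for their equality (0). Limma-voom gave 9 for romidepsin and 0 for 50 nM, dose ranks 1940 for azacitidine and a slope of its own with romidepsin 1286 (5020). Fits with a line or dose left out gave, at the extremes, 391 for the slope, 202 for the combination against azacitidine, 54 for azacitidine in H9 and 61 for the equality of azacitidine effects. RLE scaling moved the share of higher calls by less than 10 percentage points. Depth limits HLA-F most, with 141 counts in untreated PF382.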
